A study of Mus musculus with 12 samples.

Results

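Expression 5 days after knockdown of Zfp335 was compared between 3 knockdown and 3 control arrays, 6 of the 12 arrays of a mouse series. Samples were assigned by their titles and source names. Zfp335 (ZNF335 in the human nomenclature that the labels use) encodes a nuclear zinc finger protein. Both groups came from C57BL/6 mice. The knockdown cells had been depleted of ZNF335 at E14.5, an age in embryonic days, and the control cells, called neurons in their source name, had received a control knockdown at the same age. The series design names a short hairpin RNA and fluorescence-activated sorting, whereas the titles name small interfering RNA, and the promoter that drove the hairpin, the sorted marker and the number of animals are not given in the labels. Both groups also carried E15.5 as their stage, postnatal day 0 as their harvest and the long term label of 5 days after knockdown, so only the last told them from the 1 day samples. The description field of these 6 samples named the opposite group to the title. The instrument files carried one letter code on all 6 arrays titled as knockdown and another on all 6 titled as control, including the 1 day arrays, where description and title name the same group. The meaning of these letters is not stated, and under the description field every sign below would be turned.

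In the developing cerebral cortex, radial glia at the ventricle divide to renew themselves and to give rise to intermediate progenitors, which divide again and produce most projection neurons. The transcription factor Eomes marks intermediate progenitors, and proneural factors of the basic helix-loop-helix family such as Neurog2 and Neurod4 drive the step from progenitor to neuron. ZNF335 associates with the trithorax complexes that methylate lysine 4 of histone H3, and mutations of the human gene cause severe microcephaly. REST is a repressor that binds RE1 sequences and keeps neuronal genes silent outside mature neurons. The series title links ZNF335 to dividing progenitors and to neuronal differentiation, by way of trithorax and REST.

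The 6 arrays also differed in other ways, and some of these went partly with the groups. Deposited intensities had array medians of 94.8 to 147, and the number of arrays limits the precision of every value. On knockdown 2 the 3′ to 5′ signal ratio was 8.76 for Actb, where the other 5 arrays had 1.51 to 1.93, and 3.90 for Gapdh, where they had 1.65 to 2.01. Among brighter probe sets (the upper 60% by mean), knockdown 2 was the lowest array for 36.0% and the highest for 34.3%, whereas the shares of any other array were between 6.85% and 21.2%. Correlations of knockdown 2 with the other arrays were 0.878 to 0.928, and those among the other 5 were 0.939 to 0.982. The 3 knockdowns and control 1 were read on one scanner and fluidics station, and controls 2 and 3 on another, and control 2 alone came from a different chip lot. Many values are therefore also given without knockdown 2 or with the scanner as a block, a fit in which control 1 is the single control on the knockdowns' scanner and is taken to vary as the rest do. The labels do not say whether separate animals gave the arrays of a group. The p-values therefore reflect only how these samples varied, and that variation may be technical.

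For Zfp335, which has a single probe set, no difference between the groups was shown. Its level, as log2 of the normalized intensity plus 16, was 7.06, 5.40 and 7.38 in knockdowns 1, 2 and 3 and 6.70, 7.57 and 7.86 in controls 1, 2 and 3. Knockdown 2 was the lowest array, while knockdowns 1 and 3 lay inside the control range. The group means were 6.62 ± 1.06 and 7.38 ± 0.60 (SD, n = 3 each), a log2 fold change of -0.76 (SE 0.58, 95% interval -2.15 to 0.63, limma adjusted p = 1, exact two-sided permutation p = 0.4, where 3 against 3 cannot go below 0.1). Without knockdown 2 the fold change was -0.16, and with the scanner as a block -0.085. The labels do not place the hairpin's target, so its distance from the probe set is unknown. The target gene therefore did not check the labels.

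Rest, the repressor named in the title, was measured by 4 probe sets. Its brightest had levels of 11.15, 10.83 and 10.72 under knockdown, beside control levels of 10.96, 10.16 and 10.38. The groups overlapped because control 1 lay above knockdowns 2 and 3. The log2 fold change was 0.40 (SE 0.28, 95% interval -0.27 to 1.07, limma adjusted p = 1), 0.44 without knockdown 2, and -0.060 with the scanner as a block, where the sign turned. The other 3 probe sets of Rest had log2 fold changes between -0.17 and 0.27.

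**Figure D1:**
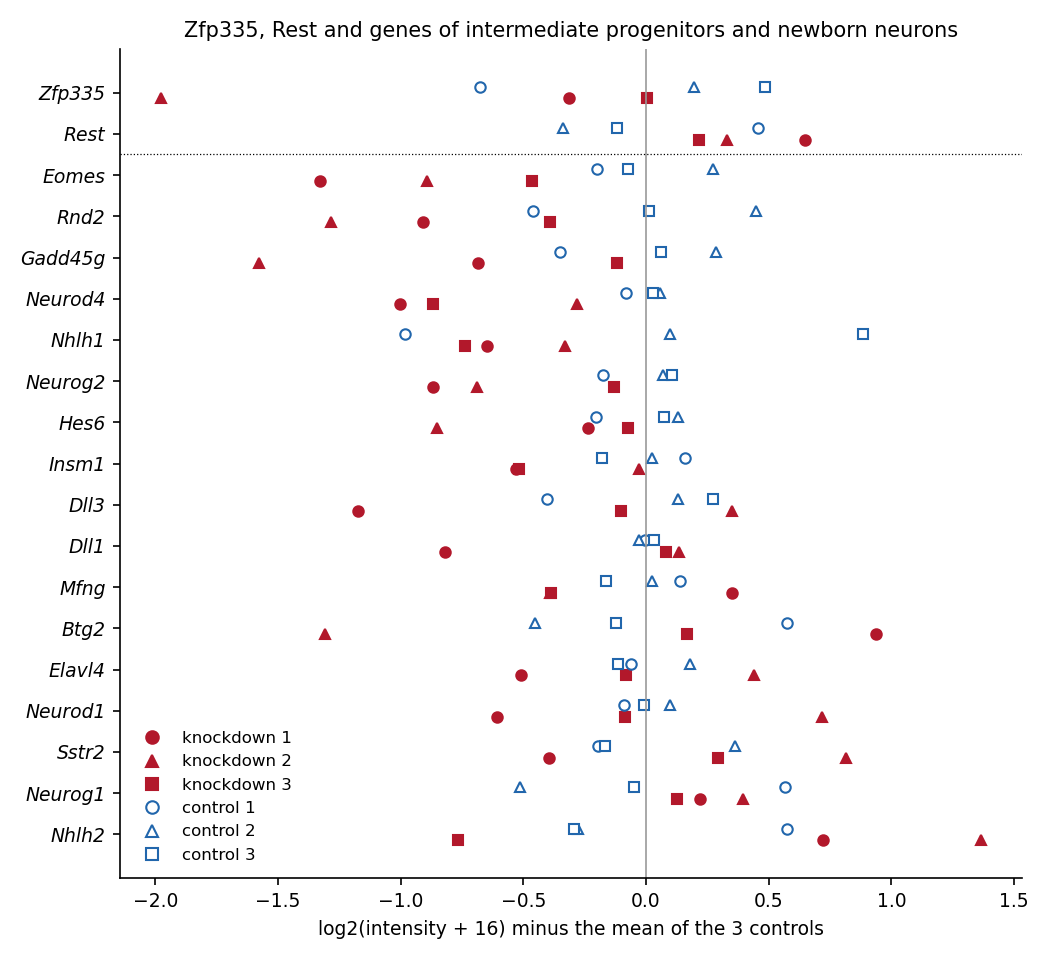
Level of Zfp335, Rest and the 17 measured genes of intermediate progenitors and newborn neurons on each 5 day array, as log2(intensity + 16) minus the mean of the 3 controls (horizontal axis). Filled red symbols are knockdowns, open blue symbols are controls, and shapes give the replicate number. Eomes and Neurod4 are the 2 listed genes whose knockdown values all lie below the control values, and Zfp335 has 1 low knockdown value.

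Across all genes no probe set passed the test. By limma, 0 of 45037 probe sets (0.0%) had an adjusted p below 0.05, and the smallest adjusted p was 1. An unadjusted p below 0.05 was found for 432 (0.959%), of which 269 were higher and 163 lower in the knockdown. The 3 knockdown values lay entirely above or below the 3 control values for 1984 probe sets (4.41%), higher for 1043 (2.32%) and lower for 941 (2.09%). Read by the brightest probe set, 783 of 18193 genes (4.3%) did not overlap, 441 higher (2.42%) and 342 lower (1.88%). The genes named below were chosen by a rule of size and overlap from a comparison with no called gene, and their values are descriptions.

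Of 12379 genes in the upper 60%, 405 (3.27%) did not overlap between the groups, and for 69 of these the log2 fold change reached 0.58 in size. Without knockdown 2 only 22 of the 69 still reached 0.58, 12 lower and 10 higher, and 14 were below 0.29. With the scanner as a block the fold change equals the mean of the knockdowns minus control 1. The rule of no overlap therefore fixed the sign of these 22 genes in that fit. There, 9 of the 12 and 8 of the 10 still reached 0.58. Leaving out any 1 array kept 10 of the 12 and 7 of the 10 at 0.58 or more, and the values ran from -1.62 to -0.51 and from 0.52 to 1.33. The rule had already required 0.58 with all arrays and without knockdown 2. These counts reuse the values that chose the genes and are no independent check.

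The 12 genes with lower values held 2 factors of intermediate progenitors. Eomes had levels of 9.40, 9.84 and 10.27 in the knockdowns, against control levels of 10.53, 11.01 and 10.66. All 3 knockdowns lay below the lowest control, and knockdown 1 was the lowest array. The means were 9.84 ± 0.43 and 10.73 ± 0.24 (SD, n = 3 each), a log2 fold change of -0.90 (SE 0.29, 95% interval -1.59 to -0.20, limma unadjusted p = 0.0186, adjusted p = 1), or 1.86-fold lower. It was -0.91 without knockdown 2 and -0.70 with the scanner as a block, and the other Eomes probe set had -0.98. Neurod4, a proneural factor, had levels of 8.42, 9.14 and 8.55 against 9.34, 9.48 and 9.45. Here knockdown 2 was the array nearest to the controls, so the log2 fold change of -0.72 (SE 0.25) became -0.96 without it. Its probe set is of a type that can bind several transcripts, and the other 2 probe sets of Neurod4 had -0.39 and 0.10.

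The promoters of Eomes and Neurod4 are shown because these were the only intermediate progenitor genes of the list whose groups did not overlap. Each sequence is the 250 bases before the annotated start (RefSeq, GRCm38.p6), 5′ to 3′, with CG in capitals, the dinucleotide that the CXXC domains of several trithorax methyltransferases bind when it is unmethylated. The Eomes window is chr9:118477939-118478188 on the plus strand and that of Neurod4 chr10:130280255-130280504 on the minus strand, the more upstream of its 2 starts.
Eomes: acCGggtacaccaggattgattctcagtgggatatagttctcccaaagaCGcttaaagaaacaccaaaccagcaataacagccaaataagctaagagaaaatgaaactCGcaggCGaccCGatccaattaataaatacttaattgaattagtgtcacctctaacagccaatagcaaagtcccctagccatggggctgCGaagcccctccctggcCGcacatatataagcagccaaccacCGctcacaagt
Neurod4: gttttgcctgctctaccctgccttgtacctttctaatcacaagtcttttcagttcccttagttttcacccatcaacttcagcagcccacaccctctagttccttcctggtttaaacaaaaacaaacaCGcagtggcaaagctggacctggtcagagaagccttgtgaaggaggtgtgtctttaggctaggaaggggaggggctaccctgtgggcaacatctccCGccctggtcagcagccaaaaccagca
The Eomes window held 8 CG and the Neurod4 window 2, beside a median of 6 over 32851 promoter windows of the same length, of which 43.0% and 81.2% held at least as many. Neither window held CANNTG on either strand, the letters that basic helix-loop-helix factors bind, while 66.2% of all windows did. A match or its absence describes these letters only.

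Rcor2, a neural corepressor of the CoREST family that works with REST, had levels of 8.66, 8.33 and 8.84 in the knockdowns, against control levels of 8.90, 9.70 and 9.80. Control 1 lay only just above knockdown 3. The log2 fold change of -0.86 (SE 0.31) was -0.73 without knockdown 2 and -0.29 with the scanner as a block. Zfp626, a zinc finger gene, had the smallest unadjusted p of the 12 (limma, 0.00279). Its levels were 6.77, 6.09 and 6.18 against 7.49, 7.54 and 7.44. The controls lay close together and every knockdown was well below them, at a log2 fold change of -1.15 (SE 0.25), with -1.04 without knockdown 2 and -1.15 with the scanner as a block. A second, dimmer probe set of Zfp626 went the other way, at 1.04. The widest difference of the 12 was that of Rtn4rl2, which encodes a receptor related to the Nogo receptor of axons. Its levels were 5.95, 6.13 and 5.29 against 6.36, 7.08 and 7.78, a log2 fold change of -1.29 (SE 0.42), and -0.57 with the scanner as a block.

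Of the other lower genes, Stag3, a cohesin subunit of meiosis, had a log2 fold change of -0.87 (SE 0.27), and the uncharacterised 1700061N14Rik -0.85 (SE 0.21), and -0.73 and -0.83 without knockdown 2. Hrk, a BH3-only gene that promotes apoptosis in neurons and whose other probe set had 0.18, had -1.05, and -0.66 without knockdown 2. Sox2ot, a long noncoding RNA whose locus contains Sox2, had -0.70 and -0.89 in the same order. A930024E05Rik had -1.12 and -0.80, and Parm1, a mucin-like membrane protein, -1.03 and -0.74. Sbsn, known from the epidermis, had -0.59 without knockdown 2, and knockdown 3, at 9.04, nearly reached the lowest control, at 9.08. The limma adjusted p was 1 for each of the 12.

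The 10 genes with higher values began with Ganc, a glucosidase that acts on glycogen. Its levels were 7.97, 8.46 and 7.53 in the knockdowns, against control levels of 6.38, 7.34 and 6.94, a log2 fold change of 1.10 (SE 0.35, limma adjusted p = 1), 0.89 without knockdown 2 and 1.61 with the scanner as a block. Knockdown 3 and control 2 were close to each other, and the other Ganc probe set had -0.13. Pygl, the liver form of glycogen phosphorylase, was the tightest of the 10, with levels of 8.97, 8.81 and 9.17 against 8.36, 8.33 and 8.43. Both groups were narrow, with SDs of 0.18 and 0.049, and its log2 fold change of 0.61 (SE 0.20) was 0.71 without knockdown 2 and 0.62 with the scanner as a block. Pawr, a regulator that promotes apoptosis, had 9.68, 9.47 and 9.67 against 8.82, 9.20 and 8.99. Its 2 probe sets gave the same log2 fold change of 0.60 and 0.61, and the first had 0.68 without knockdown 2 and 0.79 with the scanner as a block.

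Gpr3, a receptor that raises cyclic AMP without a ligand, had levels of 6.98, 8.04 and 6.95 against 6.09, 6.11 and 6.64. Knockdown 2 was the highest array, and the log2 fold change of 1.04 (SE 0.36) was 0.69 without it. Rora, a nuclear receptor of neurons, had 8.60, 9.30 and 8.88 against 8.44, 8.15 and 7.67. Of its 8 other probe sets 7 had the same sign, between -0.10 and 0.72 over the 8, beside 0.84 (SE 0.30) for the brightest. The zinc finger factor Glis3 had 0.90, the tripartite motif gene Trim5 0.94 and the phosphoinositide-binding Plekha2 1.00, and 0.74, 0.72 and 0.73 without knockdown 2. Mob2, which binds kinases, had 0.73 and 0.65, and the coiled-coil gene Ccdc158 0.89 and 0.78. The other 2 probe sets of Plekha2 had -0.10 and 0.13, so its value rests on 1 probe set.

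**Figure D2:**
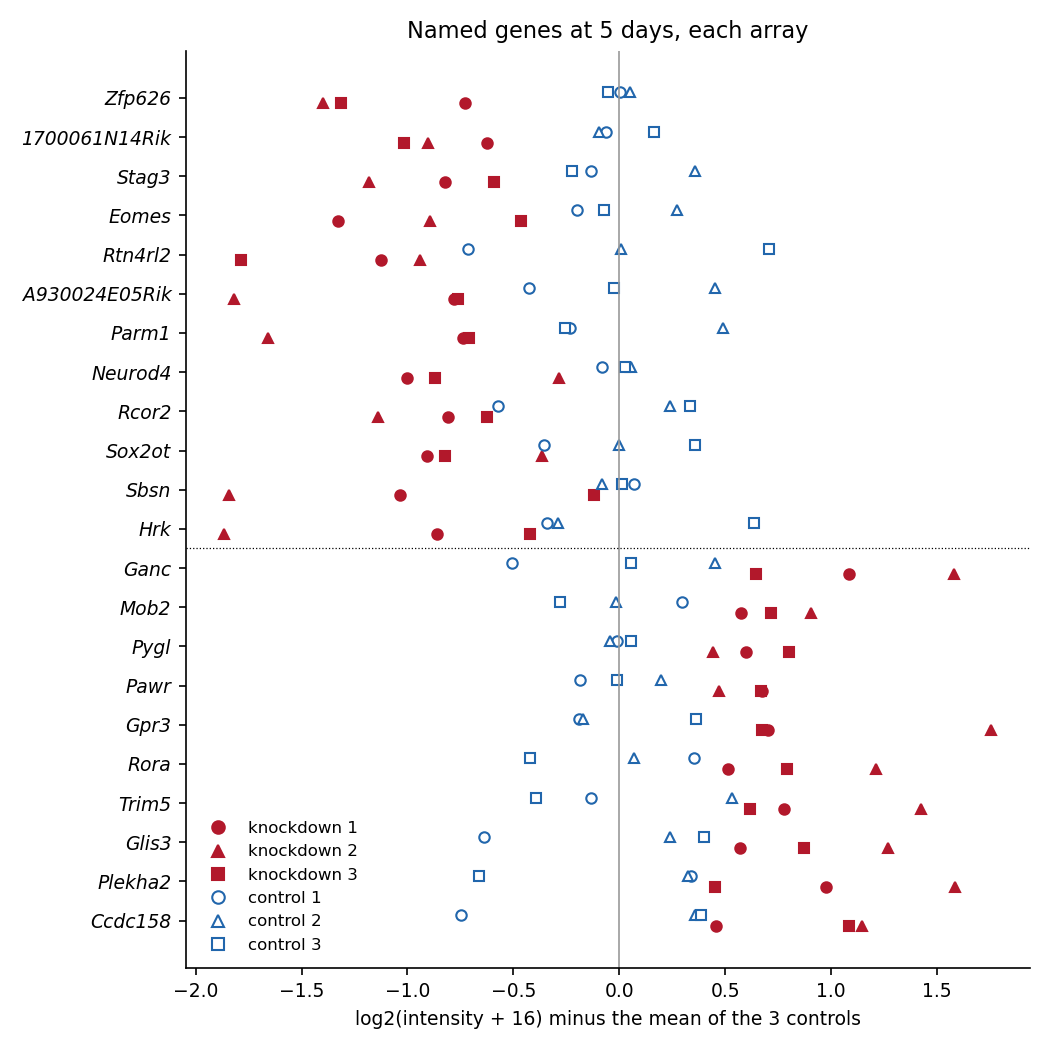
Level of the 22 genes whose groups did not overlap and whose log2 fold change was at least 0.58 in size with and without knockdown 2. The horizontal axis is log2(intensity + 16) minus the mean of the 3 controls, and the dotted line separates the 12 lower from the 10 higher genes. Knockdown 2 (red triangles) is the outermost array for several genes, such as Gpr3 and Hrk.

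For other genes the difference was smaller without knockdown 2, to varying degrees. Of the 405 genes without overlap, 165 had a log2 fold change below 0.29 in size with all arrays. Of the other 240, 82 (54 lower and 28 higher) were below 0.29 in their direction once knockdown 2 was left out. For some of these the change was small, such as a fall from 0.30 to 0.26. The 6 with the widest lower values were Tubb2a-ps2, Islr2, Kif1a, Tubb6, Dnal4 and Polr2h. Islr2, a membrane protein of growing axons, had levels of 11.06, 8.26 and 11.26 against 11.31, 11.56 and 11.47. Knockdown 2 alone was far below, and the log2 fold change of -1.25 (SE 0.78) became -0.29 without it. Kif1a, the motor of synaptic vesicle precursors, went from -0.94 to -0.15, the tubulin gene Tubb6 from -0.94 to -0.15, the dynein light chain Dnal4 from -0.90 to -0.094 and the RNA polymerase subunit Polr2h from -0.88 to -0.18. The probe set annotated to the pseudogene Tubb2a-ps2 went from -1.45 to -0.11, and its signal cannot be told from that of near-identical tubulin genes. For Kif1a and Tubb6 the other probe set had 0.25 and 0.043. On the higher side Adgra1, an adhesion receptor, had 7.38, 9.70 and 7.14 against 6.85, 7.08 and 7.09, and went from 1.07 to 0.26. Shc4 (0.50 to 0.20), Ccdc69 (0.47 to 0.15), Virma (0.45 to 0.19), Fam160b2 (0.43 to 0.25) and Dennd1b (0.43 to 0.19) followed. Knockdown 2 was also the 1 array with high 3′ to 5′ ratios, and the part of these ratios in the values was not tested.

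**Figure D3:**
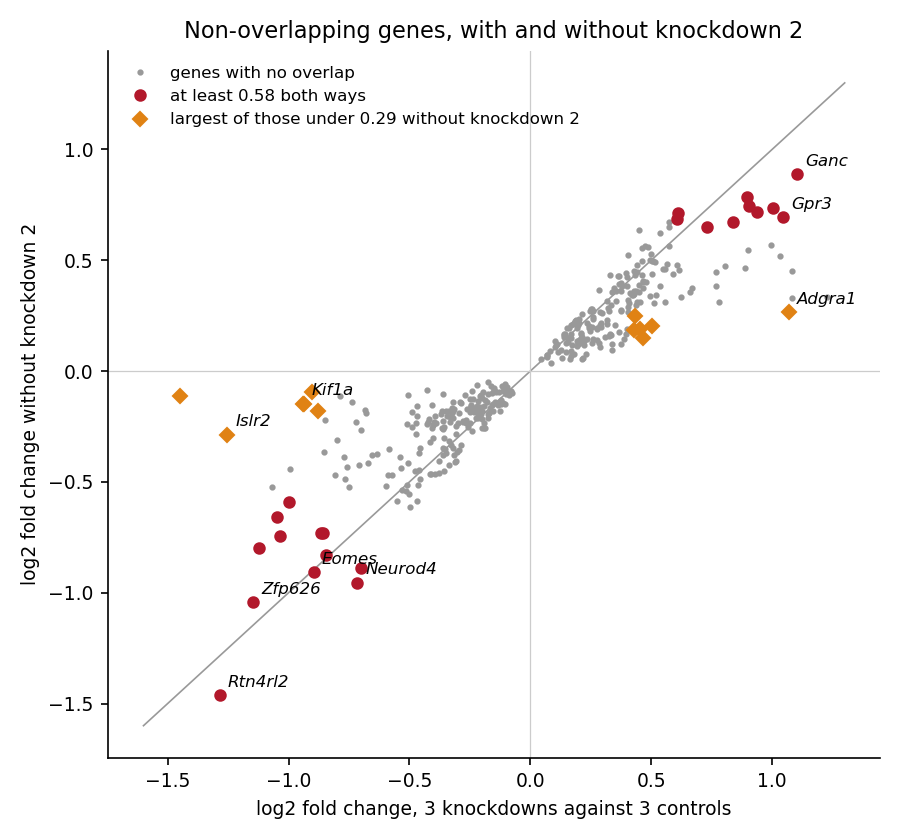
Log2 fold change of the 405 genes without overlap in the upper 60%, with all arrays (horizontal axis) and without knockdown 2 (vertical axis), with the line of equal values. Red circles are the 22 genes at 0.58 or more both ways, and orange diamonds are the 12 named genes below 0.29 without knockdown 2, such as Islr2 and Adgra1.

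Gene lists were then described by their counts and medians beside those of all genes, of which 46.9% had a log2 fold change below 0, with a median of 0.020. No member of the 35 lists passed the test. Genes of intermediate progenitors and newborn neurons were lower in 13 of 17, with a median log2 fold change of -0.31. This was the lowest median of the lists with all 6 arrays, but not without knockdown 2, where the interneuron list had -0.50, nor with the scanner as a block, where the endothelial list had -1.31. Its mean level over the list was 9.34, 9.58 and 9.54 in the knockdowns, against control levels of 9.71, 9.84 and 9.80. The 3 knockdowns lay below the 3 controls. This held for 2 of the 35 lists, and over all genes the groups did not overlap for 4.3% (1.88% lower), so the count of lists is not read as a result. The list of neuronal migration and microtubule genes was the other, with a median of -0.043 and levels of 11.51, 11.50 and 11.53 against 11.57, 11.65 and 11.64. Without knockdown 2 the progenitor list had 15 of 17 lower and a median of -0.38, with the scanner as a block 12 of 17 and -0.28, and with any 1 array left out medians of -0.38 to -0.18. Beside Eomes and Neurod4, Rnd2, which acts in migrating neurons, had -0.86 (SE 0.34) and Neurog2 -0.56 (SE 0.26), and -0.40 and -0.39 with the scanner as a block, each with 1 overlap between knockdown 3 and control 1. Genes above 0 were Nhlh2, Neurog1, Sstr2 and Neurod1.

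The lists on either side of this step did not share its median. Radial glia genes were lower in 11 of 20 with a median of -0.0089, and in 5 of 20 with 0.075 without knockdown 2. Postmitotic neuron genes were lower in 11 of 20 with a median of -0.049, which was 18 of 20 with -0.14 without knockdown 2. In the first, Emx2 had -0.36 and Mfge8 -0.31, and -0.012 and 0.043 without knockdown 2. In the second, the neurofilament genes Nefm and Nefl had 0.53 (SE 0.36) and 0.60 (SE 0.43), and 0.54 and -0.28 with the scanner as a block, where Nefl changed sign. Tubb3 and Stmn2 of this list went the other way, at -0.62 and -0.20. Their values were -0.066 and -0.036 without knockdown 2, and -0.46 and 0.081 with the scanner as a block. Deep-layer projection neuron genes had a median of 0.026 (7 of 14 lower) and ran from -0.36 to 0.38, with 0.38 for Ldb2 and 0.33 for Cdh13. The other probe sets of Cdh13 had values between -0.81 and 0.29. Upper-layer genes had a median of -0.11 (9 of 13 lower), with -0.37 for Lmo4 and 0.78 for Inhba. Without knockdown 2, Ldb2 had 0.22, Cdh13 0.16, Lmo4 -0.18 and Inhba 0.21. The difference between lists was not tested.

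Interneuron genes had a median of -0.17 and 9 of 14 were lower, but knockdown 2 stood apart from the other 2 knockdowns. The list's mean level was 8.28, 9.18 and 8.26 in the knockdowns, against control levels of 8.72, 8.79 and 8.64, so knockdowns 1 and 3 lay below and knockdown 2 above all controls. Without knockdown 2, 13 of 14 were lower, with a median of -0.50. The Dlx homeobox factors, which specify these neurons, had log2 fold changes of -0.46 for Dlx2 (SE 0.19), -0.66 for Dlx6, -0.46 for Dlx1 and -0.42 for Dlx5, and -0.52, -1.01, -0.69 and -0.75 without knockdown 2. Dlx2 alone of the list did not overlap between the groups, with 11.81, 11.86 and 11.67 against 12.19, 12.30 and 12.24. With the scanner as a block the list median was -0.11, and Dlx6 had -0.19.

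Oligodendrocyte precursor genes were lower in 9 of 10 with a median of -0.28. The list's mean level was 8.62, 8.78 and 9.42 in the knockdowns, against control levels of 9.07, 9.23 and 9.37. Knockdowns 1 and 2 lay below all controls and knockdown 3 above them, and the median was -0.20 without knockdown 2, -0.62 without knockdown 3, -0.43 without control 1 and -0.18 without knockdown 1. With the scanner as a block it was -0.15, with 6 of 10 lower. Sox8 had -0.71 (SE 0.30), with no overlap between the groups, and the lineage factors Olig2 and Olig1 had -0.44 and -0.47. Without knockdown 2 the values of the 3 genes were -0.42, -0.33 and -0.37.

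The lists named for the title's complexes had medians within 0.1 of 0 with all 6 arrays. In the trithorax list 16 of 23 were lower, with a median of -0.094, which was 0.019 with the scanner as a block. Setd1a, a methyltransferase, had -0.41 (SE 0.29) and the shared subunit Wdr5 -0.43 (SE 0.35), and -0.14 and -0.057 without knockdown 2. REST and its corepressors were lower in 10 of 18, with a median of -0.048, and Rcor2 was the member with no overlap. The methyltransferase Ehmt2 had -0.47 (SE 0.31), and -0.24 without knockdown 2. Neuronal genes with RE1 sites were lower in 8 of 26, with a median of 0.089, and in 20 of 26, with -0.081, without knockdown 2. With the scanner as a block their median was 0.25. Among them the glutamate receptor subunit Grin2a had -0.54 (SE 0.23), with no overlap and -0.52 without knockdown 2, at levels of 4.38 to 5.26 that are close to the lowest the scale allows. The granin Scg2 had 1.12 (SE 0.69), and 0.37 without it. The Polycomb list, whose complexes oppose trithorax, had 18 of 28 lower with a median of -0.066. Its member Phc2 had -0.51 and Phf1 -0.82, and -0.24 and -0.27 without knockdown 2.

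The DNA replication and mitosis lists had medians below 0, and above 0 with the scanner as a block. Of DNA replication genes 23 of 30 were lower, with a median of -0.16, against 9 of 30 and 0.098 with the scanner as a block. The replication factor Rfc3 had -0.90 and E2f1, which drives entry into S phase, -0.91, and -0.27 and -0.25 without knockdown 2, while Gins1 had -0.32 and -0.28. Of mitotic genes 15 of 25 were lower, with a median of -0.11, and 0.086 with the scanner as a block. Birc5 had -0.43 and Aurka, a spindle kinase, -0.72, and -0.17 and -0.045 without knockdown 2. Microcephaly genes had a median of -0.013 with 10 of 18 lower, which was 0.11 without knockdown 2 and 0.39, with 5 of 18 lower, with the scanner as a block. The p53 targets had -0.068 with 11 of 17 lower, 0.038 without knockdown 2 and -0.11 with the scanner as a block.

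Ribosomal protein genes were lower in 25 of 28 with a median of -0.20, and this rested on 1 array. The list's mean level was 11.34 on knockdown 2 and 11.99 to 12.28 on the other 5 arrays. Without knockdown 2 the median was 0.020 and 9 of 28 were lower, and Rplp0 went from -0.60 to -0.019. Respiratory chain genes were lower in 25 of 33, with a median of -0.10, and had 18 of 33 and -0.0051 without knockdown 2. Ndufa4 of that list had -0.38, and -0.058 without it. Immediate-early and dissociation stress genes went the other way, with 17 of 22 higher and a median of 0.23. Their median was 0.48 without knockdown 2 and -0.34 with the scanner as a block. Nr4a2 had 0.77 and 0.41, and Klf6 0.40 and 0.36, with all arrays and without knockdown 2.

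**Figure D4:**
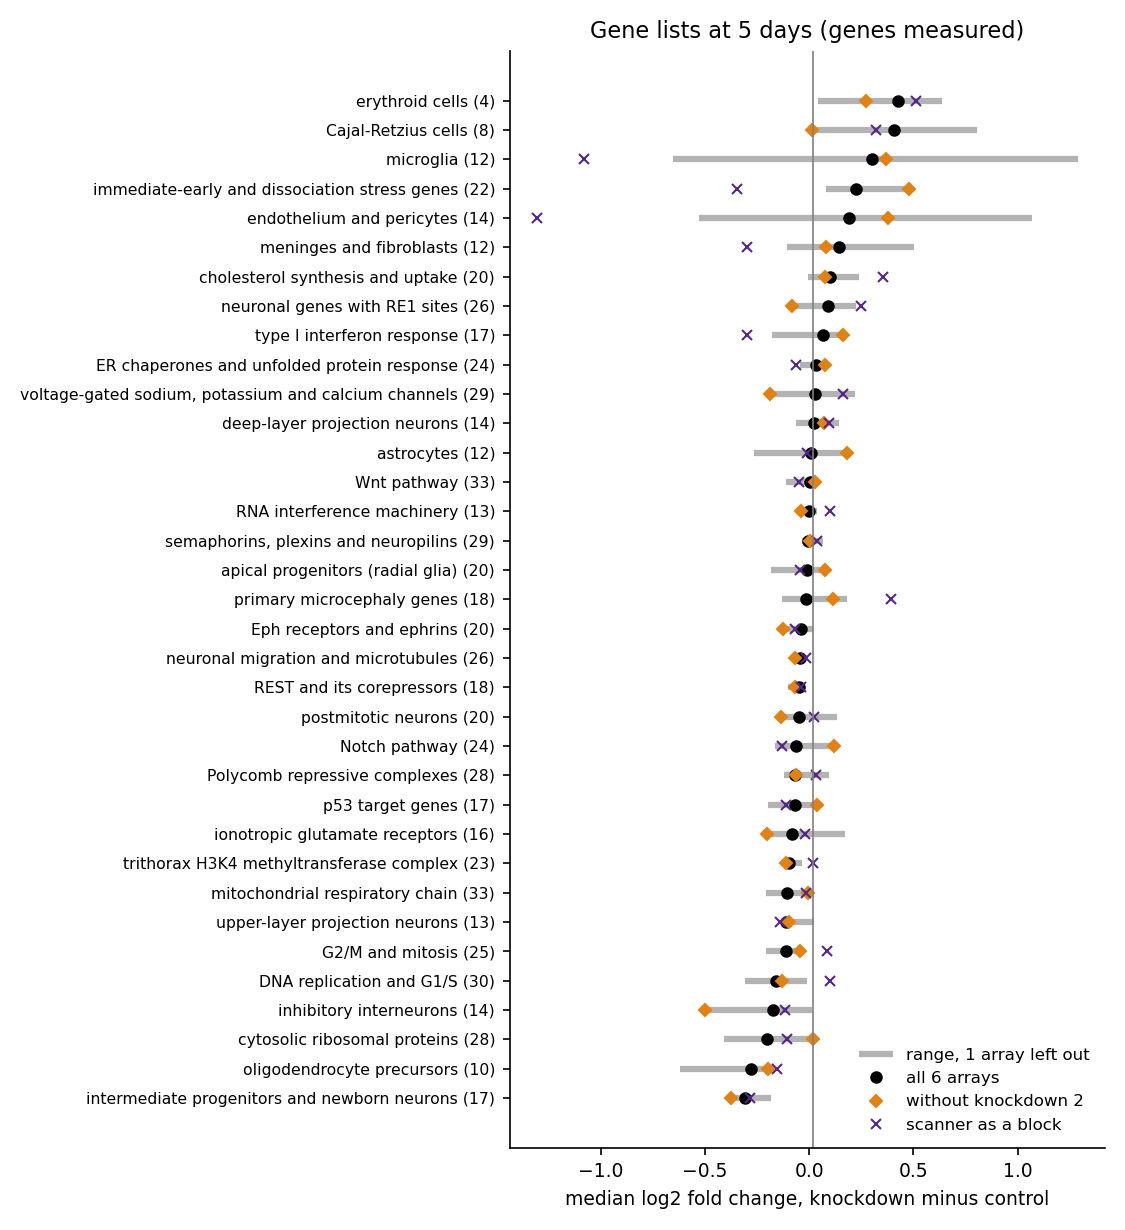
Median log2 fold change (horizontal axis) of each of the 35 gene lists, with the number of genes measured in brackets and the median of all genes as a vertical line. Black circles use all 6 arrays, orange diamonds leave out knockdown 2, purple crosses have the scanner as a block, and grey bars give the range with 1 array left out. The progenitor list stays below 0 throughout, as do the oligodendrocyte precursor, respiratory chain, REST and corepressor, and neuronal migration lists. The microglial and endothelial lists are among those that change sign.

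Signalling and surface gene lists had medians within 0.1 of 0 with all 6 arrays, and several moved further from 0 in the other fits. Notch pathway genes had -0.063 (15 of 24 lower) and Wnt pathway genes 0.0051 (16 of 33 lower). The Notch regulator Numbl had -0.63 and the Wnt enhancer Rspo3 -0.81, and -0.37 and -0.57 without knockdown 2. Semaphorin, plexin and neuropilin genes had -0.0055 (15 of 29 lower) and Eph receptor and ephrin genes -0.041 (11 of 20 lower). Ionotropic glutamate receptor genes had -0.080 (9 of 16 lower), and the subunit Grin2c -0.81, with -0.74 without knockdown 2. Voltage-gated channel genes had 0.027 (13 of 29 lower). Without knockdown 2 the median was -0.19 for the channels (21 of 29 lower), -0.20 for the glutamate receptors (12 of 16 lower), -0.12 for the Eph and ephrin genes and 0.12 for the Notch pathway (7 of 24 lower). Type I interferon genes had 0.067 (8 of 17 lower), RNA interference genes 0.00098 (6 of 13 lower) and chaperone and unfolded protein genes 0.035 (10 of 24 lower). Cholesterol genes had 0.099 (8 of 20 lower), and their member Stard4, a sterol carrier, did not overlap at 0.57 and had 0.48 without knockdown 2. With the scanner as a block the interferon list had -0.30 (13 of 17 lower), the cholesterol list 0.35 (4 of 20 lower), the channel list 0.16 and the RNA interference list 0.10.

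Markers of other cells differed widely between arrays. In bulk RNA, fewer cells of a type and less RNA per cell cannot be told apart. Postmitotic neuron markers had mean levels of 11.10 to 11.48 over the 6 arrays, and radial glia markers 10.71 to 11.39. These levels do not check the source name of the controls, because levels of different lists are not comparable. Microglial markers had 11.46, 9.29 and 7.66 in the knockdowns, against control levels of 10.59, 7.97 and 8.92. Endothelial and pericyte markers had 10.68, 8.52 and 7.40 against 10.09, 7.42 and 8.39. Knockdown 1 and control 1 were the highest arrays and knockdown 3 the lowest for both lists, so the groups overlapped fully. Their medians of 0.30 (9 of 12 higher) and 0.19 (10 of 14 higher) were -1.08 and -1.31 with the scanner as a block. The part of these cells in the other values was not tested. Astrocyte markers had a median of 0.0068 (6 of 12 lower), and 0.18 (2 of 12 lower) without knockdown 2. Meningeal and fibroblast markers had 0.14 (7 of 12 higher), Cajal-Retzius markers 0.41 (6 of 8 higher, and 0.015 without knockdown 2) and erythroid markers 0.43 (3 of 4 higher). The erythroid markers were dim, with mean levels of 5.18 to 6.13 and no member in the upper 60% of probe sets.

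**Figure D5:**
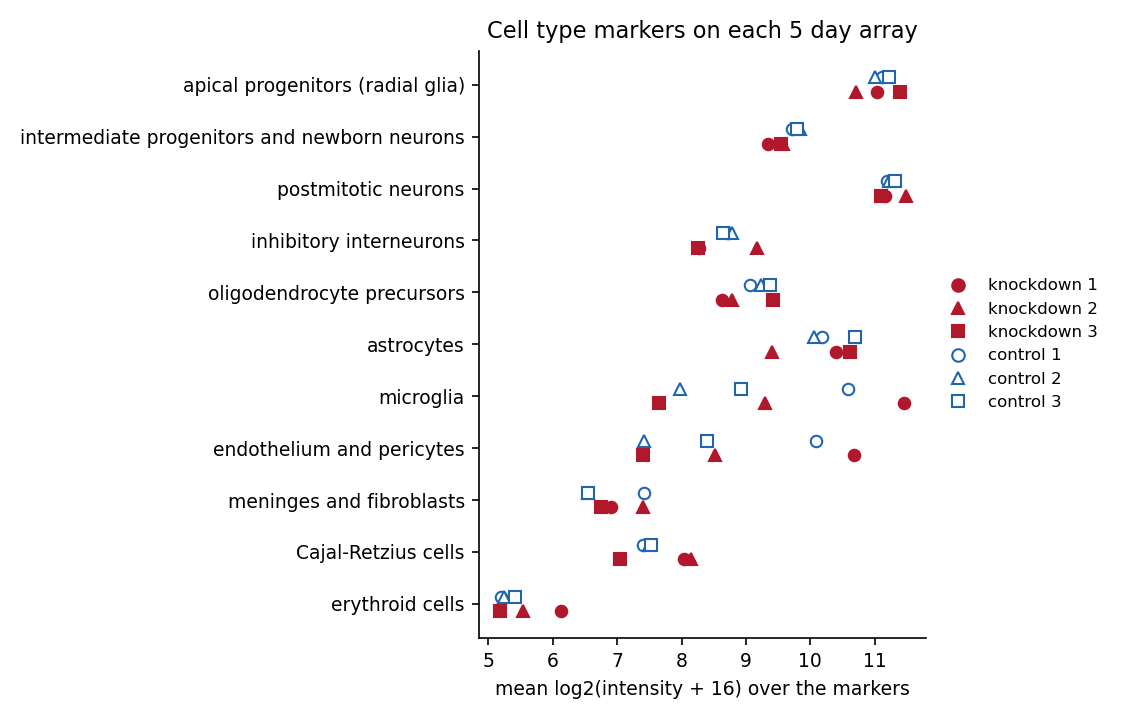
Mean log2(intensity + 16) over the markers of each cell type (horizontal axis) on each 5 day array. Filled red symbols are knockdowns and open blue symbols are controls. Microglial and endothelial markers spread widest, with knockdown 1 and control 1 on the high side, and levels of different lists are not comparable.

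The 5 day effect was set against that at 1 day after knockdown, in other samples of the series. Those samples had the same strain, stage and harvest labels. The 1 day arrays shared a chip lot that no 5 day array had, and the scanner of 5 day controls 2 and 3. Their knockdowns were run on another fluidics station than their controls, so group and station cannot be told apart at 1 day. Deposited means were 265 to 322 on the 1 day arrays and 549 to 652 on the 5 day arrays. In a fit of all 12 arrays, 0 of 45037 probe sets (0.0%) had a difference between the effects at an adjusted p below 0.05 by limma, and 284 (0.631%) had an unadjusted p below 0.05. Among the 22 named genes, 2 had an unadjusted p below 0.05 for this difference. The 22 were chosen by their 5 day values, which enter the difference, so this count is not read as a result. Zfp626 differed by -1.16 (SE 0.52), with 0.24 at 1 day, and 1700061N14Rik by -1.35 (SE 0.52), with 0.66 at 1 day. The limma adjusted p was 1 for each. At 1 day Eomes had -0.15, Neurod4 -0.11 and Rcor2 -0.45, and the differences of -0.68 (SE 0.37), -0.51 (SE 0.38) and -0.30 (SE 0.49) had intervals that included 0. The widest values of the 22 at 1 day were those of Ganc (1.09), Trim5 (0.86), Sbsn (-0.82) and Hrk (-0.81). The effects of the 2 time points were thus not shown to differ for any gene.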

How the data were processed

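The authors deposited one intensity per probe set and array on a linear scale for Affymetrix Mouse Genome 430 2.0 arrays. The summarisation and scaling behind these intensities, and the genome build, are not named in the labels or file headers. The instrument files gave scanner, fluidics station and chip lot. Of 45101 probe sets, 64 controls were left out, leaving 45037, of which 34945 carried 1 gene symbol in the platform annotation, 932 several and 9160 none, and symbols were updated through Entrez identifiers where these matched. Each of 18193 genes was read by its brightest probe set.

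The deposited intensities of the 6 arrays were taken to log2(value + 16) after quantile normalization, so a fold change is on that scale and understates the change of dim genes. Groups were compared with limma (3.58.1, R 4.3.3; lmFit and eBayes, 4 residual degrees of freedom), with Benjamini-Hochberg adjustment over 45037 probe sets and a threshold of 0.05. The difference from the 1 day effect was fitted on all 12 arrays. The median SE of a log2 fold change was 0.31. The procedure was tested on simulated data.

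Named genes were Zfp335 and Rest; up to 12 each way in the upper 60% by mean without overlap and with log2 fold changes of at least 0.58 with and without knockdown 2, in the order of p; up to 6 each way that were below 0.29 without it; and the members of each list with the smallest p. Of 698 listed genes 655 were measured. Members, lists and the attention to knockdown 2 were chosen with earlier results of these data known. Alternatives were other normalizations, pseudocounts of 1 and 64, a filter on dim probe sets, array weights, an intensity trend, the replicate number or scanner as a block, averaged probe sets and leaving out each array.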

Additional observations from a re-analysis of the deposited data

How the results depend on the processing

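The count of 0 probe sets past the threshold at 5 days held under the other normalizations, pseudocounts, filter, intensity trend, blocks and left-out arrays, and not with array weights, which gave 1563 by limma. Averaging the probe sets of a gene was run for named genes and lists, not for this count. That estimate of the weights did not reach its convergence tolerance, with weights of 0.149 for knockdown 2 and 7.28 and 7.52 for knockdown 3 and control 2, so in effect 1 array stood for each group. The count at an unadjusted p below 0.05, which was 432, ran from 107 among the upper 60% of probe sets to 1192 without knockdown 3, beside 13640 with array weights. With 1 array left out the count past the threshold was 0 each time, and so was that for the difference from 1 day. The log2 fold change of Zfp335 was -1.14 to -0.16 with 1 array left out, and stayed below 0 under the other alternatives. Of 1184 values of 73 genes named above, 8 changed sign. These were Rest (-0.060) and Nefl (-0.28) with the scanner as a block, Cdh13 (-0.10) with its probe sets averaged, Mfge8 (0.043) without knockdown 2 (its range with 1 array left out was -0.62 to 0.043), and Emx2 (0.14), Mfge8 (0.37), Olig2 (0.098) and Olig1 (0.022) with array weights. Other list members, Tubb3 and Stmn2 among them, were not in this count, and some of them turned. Apoe had -1.06, and 0.46 without knockdown 2, and Cx3cr1 had 0.59, and -1.02 with the scanner as a block. Of 594 list medians, 40 moved by more than the spread between replicates. The cause was not tested. The replicate number as a block gave 0 such probe sets, 282 with an unadjusted p under 0.05, and -0.76 for Zfp335. Samples that share a number had correlations of their deviations of -0.15, -0.0062 and 0.040, and no knockdown correlated best with the control of its own number, so the numbers were not taken as a pairing. The number of arrays and their spread limit what can be shown.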
